A study of Homo sapiens with 9 samples.

Results

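DHX15 is a DEAH-box RNA helicase, and the genes described here are DHX15 and 9 genes for proteins with a G-patch, a short glycine-rich domain through which DEAH-box helicases are bound and switched on. The 10 genes, DHX15, TFIP11, NKRF, CMTR1, SUGP1, RBM5, RBM17, GPATCH2, GPATCH4 and PINX1, were taken by symbol from a deposited table of 17637 genes, and all 10 were present and passed the filter on low counts. A DEAH-box helicase of this kind hydrolyses ATP to pull on RNA, is slow and unspecific alone, and is directed to its sites by G-patch proteins that tether its moving lobes. DHX15 is the human counterpart of yeast Prp43, which takes apart spent spliceosomes and acts in ribosome assembly. Different partners take DHX15 to different machines, and the partners have been proposed to share one pool of helicase.

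Messenger RNA was measured in 9 libraries of KOPTK1, a cell line established from human T-ALL (acute lymphoblastic leukaemia of T cells). In 3 libraries cells carried a hairpin RNA against DHX15 together with the MYC coding region (shDHX15+MYC), in 3 the hairpin alone (shDHX15) and in 3 a control hairpin (shControl); the genotype is labelled wild type in all 9. The study asked whether MYC acts downstream of DHX15. The table's column names give 1 hairpin number to all shDHX15 and shDHX15+MYC libraries, and what that hairpin does besides lowering DHX15 cannot be told apart. Cells with MYC and the control hairpin were not analysed here, and the labels give no batch. An effect of MYC therefore cannot be told apart from anything else that set the shDHX15+MYC libraries apart. Phrases such as "with MYC" name that group of libraries.

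Libraries held 42134302 to 59688062 counts, and the members 462 (PINX1, shDHX15 replicate 1) to 13054 (DHX15, shControl replicate 3). All 13 markers of the T lineage were read, with summed levels of 1788 to 1827 CPM in shDHX15+MYC, 2839 to 2959 CPM in shDHX15 and 3525 to 3623 CPM in shControl. Each of the 13 was lower in every shDHX15+MYC library than in every shControl library. The widest falls were those of DNTT (mean 1.83 CPM in shDHX15+MYC against 98 in shControl), CD1B (7.63 against 128.6) and PTCRA (0.184 against 2.26). Levels are in CPM, a library's counts of a gene over its total after scaling by TMM, a method that centres libraries on their typical gene. The 6 myeloid markers summed to 7.25 to 8.93 CPM in shDHX15+MYC, 0.657 to 0.912 CPM in shDHX15 and 0.708 to 1.31 CPM in shControl, with CSF1R at 0 in the shDHX15 libraries. The 5 B-lineage markers found in the table summed to 105.2 to 109.3, 46.5 to 48.9 and 51.1 to 53.1 CPM in the same groups (CD22 at 0 in shDHX15), and the 7 markers of epithelial and stromal cells to 41.6 to 43.3, 17.5 to 19.8 and 23.4 to 23.7 CPM (COL1A2 at 0 in shControl). Mitochondrial genes held 6.59% to 6.66% of counts in shDHX15+MYC and 3.67% to 3.99% in the other libraries. The part of these shifts in the results on the members was not tested. Replicate 1 of shDHX15 stood apart: comparing its counts with replicates 2 and 3 gave 18 and 17.1 (chi-square over its degrees of freedom), where those replicates gave 4.45 between them and the other groups 2.73 to 3.23.

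The promoters of 3 members are shown because DHX15 is the gene targeted and GPATCH4 and NKRF are nucleolar partners whose messages rose with added MYC. Each is the RefSeq window of 250 bases before to 50 after the start site (GRCh38.p14), given 5′ to 3′ on the gene's strand. DHX15 lies at chr4:24584505-24584804 (minus strand), GPATCH4 at chr1:156601430-156601729 (minus) and NKRF at chrX:119606375-119606674 (minus). Capitals mark a match to the E-box CACGTG, which MYC and MAX bind, or to its variant CACGCG on either strand.
DHX15: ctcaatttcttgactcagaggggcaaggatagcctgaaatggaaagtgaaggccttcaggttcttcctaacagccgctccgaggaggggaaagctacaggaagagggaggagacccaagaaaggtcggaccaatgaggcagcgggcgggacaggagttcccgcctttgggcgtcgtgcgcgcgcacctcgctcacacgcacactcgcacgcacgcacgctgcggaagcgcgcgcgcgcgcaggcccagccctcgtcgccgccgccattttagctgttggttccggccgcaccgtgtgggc
GPATCH4: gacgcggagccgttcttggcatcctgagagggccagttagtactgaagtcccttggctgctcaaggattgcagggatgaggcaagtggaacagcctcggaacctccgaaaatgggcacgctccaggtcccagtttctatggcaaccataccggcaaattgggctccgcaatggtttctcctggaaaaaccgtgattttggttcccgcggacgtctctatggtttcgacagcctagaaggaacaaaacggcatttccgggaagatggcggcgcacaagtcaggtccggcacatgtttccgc
NKRF: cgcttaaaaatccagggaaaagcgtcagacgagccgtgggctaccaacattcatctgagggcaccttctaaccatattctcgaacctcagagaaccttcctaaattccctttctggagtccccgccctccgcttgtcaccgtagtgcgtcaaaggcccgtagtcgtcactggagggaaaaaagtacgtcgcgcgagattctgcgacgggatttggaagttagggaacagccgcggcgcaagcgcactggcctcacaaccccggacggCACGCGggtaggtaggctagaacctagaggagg
The 9 members with a window in the table, all but PINX1, held CACGTG in 0 of 9, and 1 of 9, NKRF, held CACGCG, beginning at base 18 after the start. Among 18667 RefSeq promoters of genes in the count table, 8.65% held CACGTG and 15.2% held CACGCG. These matches are a description of the letters in this window only.

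DHX15, the targeted gene, was lower in every library with the hairpin. It stood at 196.8, 196.4 and 192.2 CPM in shDHX15+MYC, at 182.1, 162 and 155.5 CPM in shDHX15 and at 284.3, 278.3 and 278.4 CPM in shControl. The 3 groups did not overlap, and the library of shDHX15 with the most DHX15 was replicate 1. In shDHX15 the message was 1.68-fold lower than in shControl (-0.75 on the log2 scale with an SE of 0.0441, edgeR adjusted p = 1.04e-09); without replicate 1 of shDHX15 it was -0.82. A lower level in such bulk RNA can reflect less RNA in every cell or fewer cells with full knockdown, which cannot be told apart. In shDHX15+MYC, DHX15 was 1.44-fold below shControl (-0.52, edgeR adjusted p = 4.62e-09) and 1.17-fold above shDHX15 (0.23, 95% interval 0.14 to 0.32, adjusted p = 1.24e-04). Both of these depend in size on the scaling: with total counts they were -0.26 and 0.43. The gene spans bases 24517441 to 24584550 of chromosome 4 (GRCh38, GENCODE v29), and no 100-base window sampled from its transcripts or from any partner's was found at another locus.

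**Figure D1:**
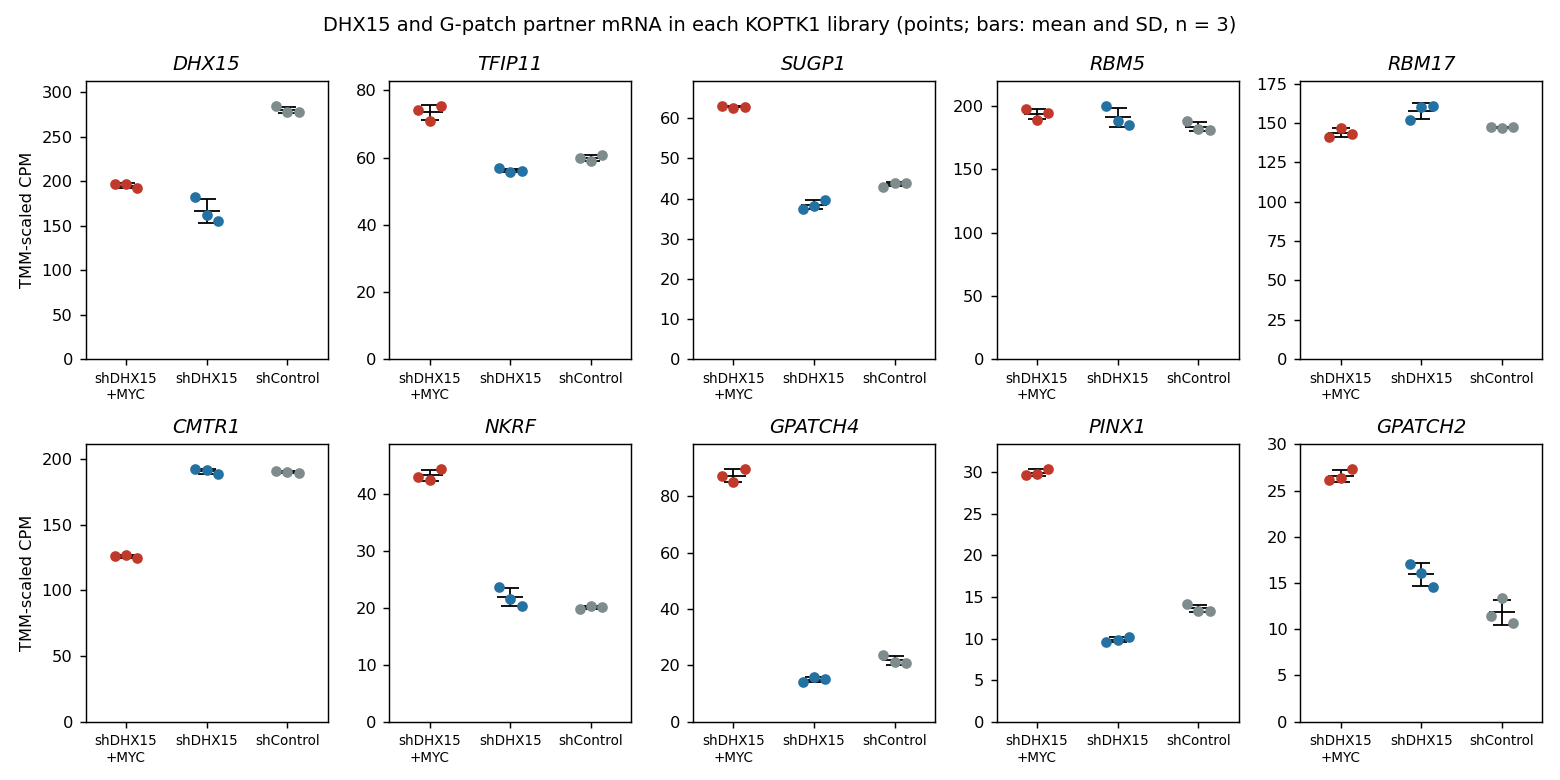
Level of each of the 10 genes in every library, in TMM-scaled CPM on linear axes that start at 0; points are libraries, bars the mean and SD of 3. DHX15 is lowest in shDHX15, GPATCH4, PINX1, NKRF, SUGP1, TFIP11 and GPATCH2 are highest in shDHX15+MYC, and CMTR1 is lowest there.

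Knockdown alone moved the partners by at most 1.45-fold. Against shControl, 4 of the 10 members were called lower in shDHX15 (DHX15, GPATCH4, PINX1 and SUGP1) and 2 higher (GPATCH2 and RBM17), a call being an adjusted p under 0.05 over 15309 genes; of all genes tested, 23% were called lower, 22% higher and 45% either way. The members' median log2 fold change was -0.04, against -0.005 for all genes. Without the targeted gene, 5 of the 9 partners were called, a share near that background. The ranges of shDHX15 and shControl did not overlap in 8 of the 10, where 51.1% of all genes did not overlap. Total-count scaling gave 4 members lower and 4 higher, NKRF and RBM5 being called higher too (0.19 and 0.12, edgeR adjusted p = 0.0156 and 0.00744). It called 7144 of all genes, 64.1% of them higher. Without replicate 1 of shDHX15 the counts were 5 lower, TFIP11 added, and 2 higher.

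Between shDHX15+MYC and shDHX15, 9 of the 10 members were called, as were most other genes. Over shDHX15, 7 of the 10 were called higher in shDHX15+MYC and 2 lower, where 42.1% of all genes were called higher, 42.6% lower and 84.7% either way. The median of the members was 0.55, against 0.006 for all genes, and 9 of the 10 had ranges that did not overlap, as 85% of all genes did. Against shControl the counts were also 7 higher and 2 lower (42%, 42.5% and 84.5% of all genes), with a median of 0.41 against 0.017 and 9 of 10 ranges apart (87.2% of all genes). These comparisons share libraries and are no independent support for each other. Total-count scaling, which moved the median of all genes up by 0.20 and 0.27, gave 8 higher and 1 lower over shDHX15 and 8 higher and 2 lower over shControl. Of all genes called with total counts in the same comparisons, 58.9% and 62.4% were higher.

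**Figure D2:**
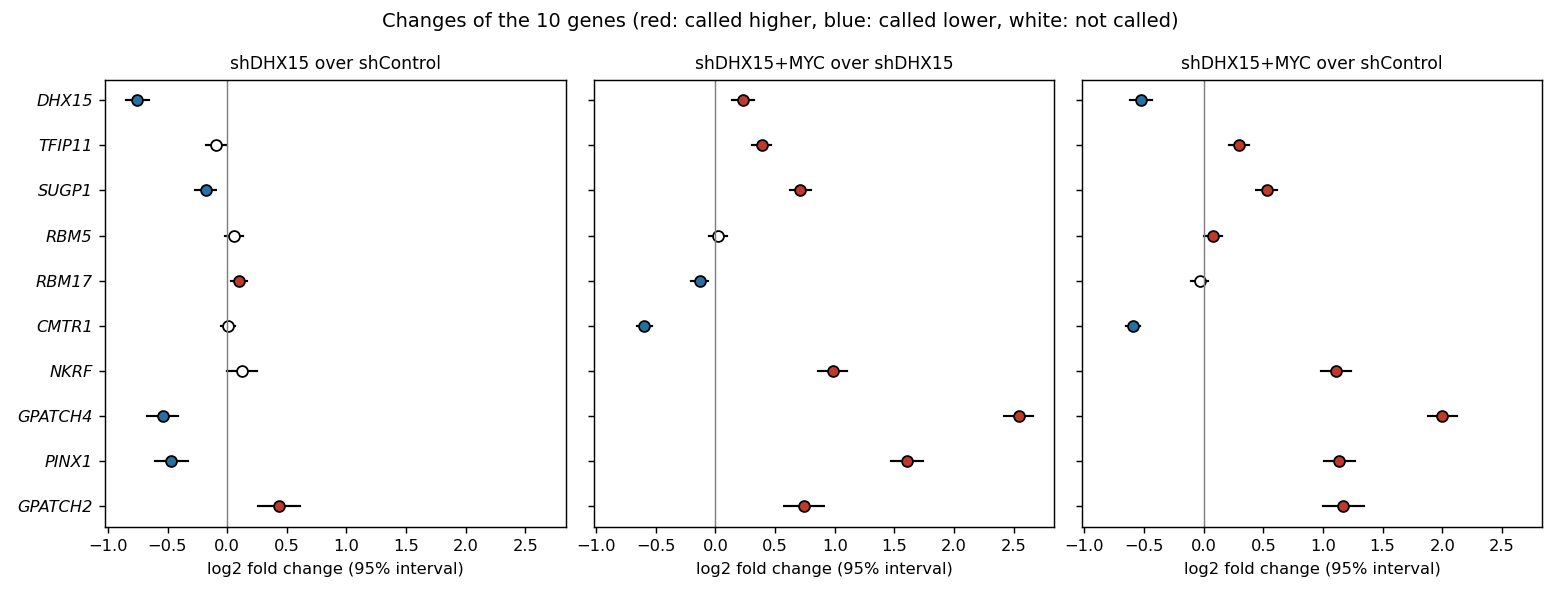
Log2 fold change of each gene in the 3 comparisons, with its 95% interval; red points were called higher, blue lower, and white were not called. GPATCH4 has the highest fold change with MYC, and RBM5, RBM17 and CMTR1 lie at or below 0.1 in all 3 comparisons.

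The partners that act in the nucleolus rose most with MYC over shDHX15. GPATCH4, a nucleolar protein that stimulates DHX15 in ribosome production, had 87.03, 84.97 and 89.61 CPM in shDHX15+MYC, 14.08, 15.78 and 15.03 CPM in shDHX15 and 23.52, 21.12 and 20.71 CPM in shControl. The 3 groups lay wholly apart, with shDHX15 lowest. Its message fell 1.45-fold in the knockdown (-0.54 in log2, SE 0.0613, edgeR adjusted p = 2.05e-06). With MYC it rose 5.82-fold over shDHX15 (2.54, SE 0.0582, adjusted p = 8.58e-17) and stood 4-fold above shControl (2.00, adjusted p = 1.29e-15). GPATCH4 lies on chromosome 1 at 156594487 to 156601496.

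PINX1, which binds telomerase and the telomere protein TERF1 and takes part in rRNA processing, followed the same course. Its levels were 29.63, 29.83 and 30.39 CPM in shDHX15+MYC, 9.61, 9.77 and 10.18 CPM in shDHX15 and 14.16, 13.33 and 13.37 CPM in shControl, again without overlap. It fell 1.38-fold in the knockdown (-0.47, SE 0.0657, edgeR adjusted p = 2.02e-05), rose 3.04-fold over shDHX15 with MYC (1.60, SE 0.063) and then exceeded shControl 2.2-fold (1.14, adjusted p = 1.01e-11). GENCODE places it on chromosome 8 at 10725399 to 10839884, where 31.2% of its exon bases are shared with SOX7 on the same strand; SOX7 itself was at 0.56 CPM in shDHX15+MYC, 0.234 in shDHX15 and 0.269 in shControl.

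NKRF, first known as a repressor of NF-kB targets, links DHX15 to the exonuclease XRN2 in early cuts of the pre-rRNA. It differed from GPATCH4 and PINX1 in that it was not lower in the knockdown: 43.09, 42.56 and 44.46 CPM were read in shDHX15+MYC, 23.73, 21.64 and 20.44 CPM in shDHX15 and 19.77, 20.34 and 20.26 CPM in shControl. The shDHX15 libraries lay just above shControl, but the difference was not called (0.12, 95% interval -0.004 to 0.25, edgeR adjusted p = 0.108). It was called without replicate 3 of shDHX15 (0.17, adjusted p = 0.0382). With MYC the message rose 1.98-fold over shDHX15 (0.98, SE 0.058, adjusted p = 3.17e-11) and 2.16-fold over shControl. Of its exon bases on chromosome X (119588337 to 119606443), 21% overlap UBE2A on the other strand; whether counting used strand is not stated. UBE2A had 116.6, 109.7 and 116.5 CPM in shDHX15+MYC, shDHX15 and shControl.

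Splicing partners moved less, and not together. TFIP11, which recruits DHX15 to intron-lariat spliceosomes for their disassembly, had 74.3, 70.94 and 75.28 CPM in shDHX15+MYC, 56.82, 55.84 and 55.93 CPM in shDHX15 and 59.75, 59.05 and 60.76 CPM in shControl. The shDHX15 libraries lay below shControl without overlap, yet the change was not called (-0.09, 95% interval -0.17 to -0.008, edgeR adjusted p = 0.0709); without replicate 1 of shDHX15 it was (-0.10, adjusted p = 0.0458). With MYC it rose 1.31-fold over shDHX15 (0.39, SE 0.039, adjusted p = 5.25e-08) and 1.23-fold over shControl (0.30, and 0.56 with total counts). On chromosome 22 (26491225 to 26512505) 25.5% of its exon bases overlap SRRD on the other strand, which was at 31.4, 25.6 and 29.9 CPM in shDHX15+MYC, shDHX15 and shControl and was called lower in the knockdown (-0.23) and higher with MYC over shDHX15 (0.30).

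SUGP1, which works with SF3B1 in the choice of branch site, had 62.99, 62.68 and 62.88 CPM in shDHX15+MYC, 37.44, 38.26 and 39.67 CPM in shDHX15 and 42.96, 43.9 and 43.83 CPM in shControl. All 3 groups were separate, with the knockdown lowest. It fell 1.13-fold in shDHX15 (-0.18, SE 0.0424, edgeR adjusted p = 0.00229; -0.11 with total counts) and rose 1.63-fold over it with MYC (0.71, SE 0.0417, adjusted p = 3.04e-11), to 1.44-fold above shControl. It lies on chromosome 19 at 19276018 to 19320844, with 3.06% of its exon bases over MAU2 on the other strand. RBM17, also called SPF45, which helps to recognise the 3′ splice site, was not higher with MYC than in shDHX15. It had 141.4, 146.9 and 143 CPM in shDHX15+MYC, 152, 160.4 and 160.6 CPM in shDHX15 and 147.5, 146.6 and 147.2 CPM in shControl. Its 1.07-fold rise in the knockdown (0.10, adjusted p = 0.0195) was lost when any of 5 of the 6 libraries was left out (each but replicate 1 of shDHX15; adjusted p 0.0508 to 0.0764). Its 1.1-fold fall with MYC (-0.13, adjusted p = 0.00118) became 0.07 with total counts, which was not called (adjusted p = 0.0673). Against shControl the difference was -0.03 (95% interval -0.10 to 0.04, adjusted p = 0.357) in shDHX15+MYC, and 0.23 with total counts (adjusted p = 3.71e-06). RBM17 lies on chromosome 10 at 6088987 to 6117457.

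RBM5, a splicing regulator of apoptosis genes, stayed within a narrow band of 189.3 to 197.4 CPM in shDHX15+MYC, 185.3 to 199.8 CPM in shDHX15 and 181.2 to 187.8 CPM in shControl. Its groups overlapped except shDHX15+MYC and shControl. The log2 differences were 0.06 in the knockdown (95% interval -0.02 to 0.13, edgeR adjusted p = 0.192), 0.02 with MYC over shDHX15 (-0.05 to 0.09, adjusted p = 0.594) and 0.08 over shControl (adjusted p = 0.0463), the last lost when any of 5 of the 6 libraries was left out (each but replicate 2 of shDHX15+MYC; adjusted p 0.0614 to 0.182). Total-count scaling gave 0.22 and 0.34 for the last 2. RBM5 overlaps antisense genes in 17.4% of its exon bases on chromosome 3 (50088908 to 50119021) and its paralogue RBM6 in 4.4%.

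CMTR1, which methylates the first transcribed nucleotide of the cap, was the member with the widest fall with MYC. Its levels were 126.6, 127 and 124.9 CPM in shDHX15+MYC, 192.5, 191.4 and 188.5 CPM in shDHX15 and 190.8, 190.4 and 189.5 CPM in shControl. The knockdown and control libraries overlapped, with a difference of 0.005 (95% interval -0.06 to 0.07, edgeR adjusted p = 0.915). With MYC the message fell 1.51-fold against shDHX15 (-0.60, SE 0.0292, adjusted p = 2.24e-12) and 1.51-fold against shControl (-0.59, adjusted p = 2.68e-12); total counts gave -0.40 and -0.33. The gene lies on chromosome 6 at 37433219 to 37482827 and overlaps no other gene's exons. GPATCH2, a nuclear protein that raises the ATPase activity of DHX15, had the lowest level per length and was the member called higher in all 3 comparisons. It had 26.1, 26.41 and 27.33 CPM in shDHX15+MYC, 17.1, 16.12 and 14.59 CPM in shDHX15 and 11.45, 13.33 and 10.68 CPM in shControl, with no overlap. It rose 1.35-fold in the knockdown (0.43, SE 0.0836, adjusted p = 4.36e-04) and a further 1.67-fold with MYC (0.74, SE 0.0789, adjusted p = 1.13e-07), and stood 2.25-fold above shControl (1.17). It lies on chromosome 1 at 217426992 to 217631082.

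Levels of different genes were compared as CPM per kb of exon. In shControl CMTR1 (mean 36.1, libraries 35.9 to 36.2, n = 3) and DHX15 (34.3, 34.1 to 34.8) led, followed by RBM17 (22.9), RBM5 (17.7), TFIP11 (11), SUGP1 (8.13), GPATCH4 (4.91), NKRF (4.42), PINX1 (3.35) and GPATCH2 (1.34). No neighbours in that order overlapped between libraries. With the longest transcript as length instead, DHX15 (92.6) led CMTR1 (47.2), SUGP1 passed TFIP11 and PINX1 passed NKRF, so these orders rest on the choice of length. By exon length, DHX15 in shDHX15 (20.4 ± 1.70, SD, 19 to 22.3 per library) dropped below RBM17 (24.6 ± 0.768) and overlapped RBM5 (17.9 to 19.3). In shDHX15+MYC, DHX15 and CMTR1 overlapped at 23.9 ± 0.316 and 23.9 ± 0.219, and GPATCH4 (19.7 ± 0.526) stood above RBM5 (18.7 ± 0.394). With the longest transcript as length, DHX15 led the members in both groups. It was then at 55 in shDHX15, against 42 for RBM17 and 34 for RBM5. In shDHX15+MYC it was at 64.5, against 31.3 for CMTR1.

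The ratio of partner to DHX15 reads per kb of exon was then formed within each library, and no library scaling can change it. Its size rests on the length used, and it is no count of molecules. With the longest transcript, CMTR1 in shControl was at 47.2 CPM per kb against 92.6 for DHX15. The fold change of a ratio between groups does not depend on length. The ratio uses the fall of DHX15 itself, so a higher ratio in the hairpin libraries is in part given by the knockdown. NKRF stood at 0.399 ± 0.0141 of DHX15 in shDHX15+MYC, 0.236 ± 0.00298 in shDHX15 and 0.129 ± 0.00354 in shControl (SD, n = 3). GPATCH4 stood at 0.822 ± 0.0318, 0.166 ± 0.0209 and 0.143 ± 0.0082 in the same groups. For GPATCH4 the knockdown and control libraries overlapped, both messages being lower in the knockdown. For the other 8 partners every shDHX15 library lay above every shControl library, from 1.22-fold for PINX1 to 2.28-fold for GPATCH2. With MYC the ratio of CMTR1 stood at 1.00 ± 0.00487, against 1.78 ± 0.127 in shDHX15 and 1.05 ± 0.0105 in shControl, a little under every control library. RBM17 and RBM5 also had lower ratios with MYC than in shDHX15 (0.937 ± 0.0203 against 1.21 ± 0.132, and 0.781 ± 0.0198 against 0.905 ± 0.0379). The other 6 had higher ones, from 1.11-fold for TFIP11 to 4.97-fold for GPATCH4.

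**Figure D3:**
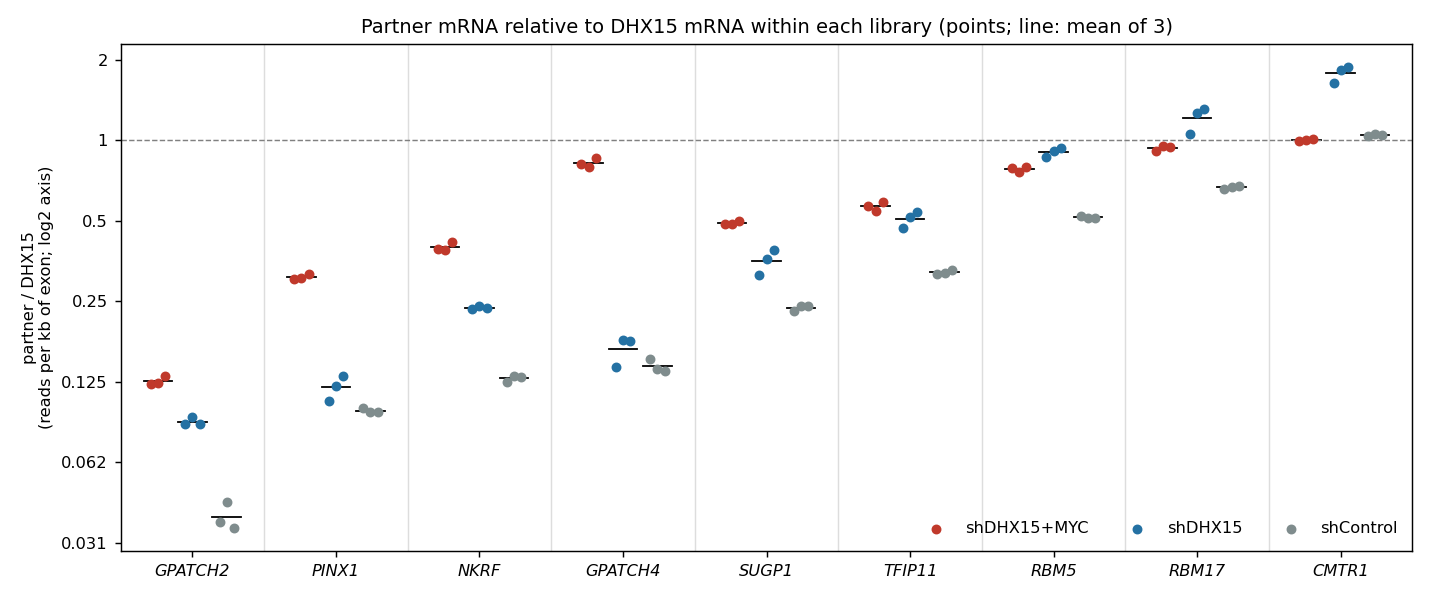
Partner message relative to DHX15 message within each library, in reads per kb of exon, on a log2 axis; points are libraries and lines the mean of 3, with partners ordered by their ratio. GPATCH4 has a mean of 0.822 in shDHX15+MYC, 0.166 in shDHX15 and 0.143 in shControl, whereas CMTR1 is highest in shDHX15.

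Human cells express more G-patch genes than these, and all 14 others on a list of the family were measured. Their summed level with the 9 partners was 400.7 ± 3.93 CPM per kb in shDHX15+MYC, 393.3 ± 6.91 in shDHX15 and 375.7 ± 0.885 in shControl, that is 16.8 ± 0.382, 19.4 ± 1.80 and 10.9 ± 0.159 per DHX15 (SD, n = 3). Under TMM, the make-up of that sum differed more than its level. The level rests on this scaling and was not formed with total counts, whereas the shares do not depend on library scaling. SUGP2, a paralogue of SUGP1, held 4.86% of the sum in shDHX15+MYC against 15% in shDHX15 and 13.8% in shControl. It was at 165 ± 5.82 CPM in shDHX15+MYC and 500.2 ± 11.5 CPM in shDHX15, 3.03-fold lower with MYC (-1.60, SE 0.0329, edgeR adjusted p = 2.16e-17), while SUGP1 rose. RBM6, a paralogue of RBM5, rose 1.26-fold in the knockdown (0.33, adjusted p = 3.83e-07) and fell 1.75-fold with MYC (-0.81, adjusted p = 1.64e-13). CHERP, which joins RBM17 at the U2 snRNP, had 238.9 ± 2.43 CPM in shDHX15+MYC and 123.3 ± 10.1 CPM in shDHX15 (0.95, adjusted p = 1.35e-12), and GPATCH3 rose 2.49-fold. RBM10, another paralogue of RBM5, took the top share with MYC at 12.1%, against 8.49% in shDHX15. The shares and the sum per DHX15 rest on exon length. With the longest transcript, CHERP (57.3 CPM per kb) and SON (56.8) stood above RBM10 (50.2) in shDHX15+MYC. Of these 14, 5 were called higher and 2 lower in shDHX15 over shControl (median 0.05), where 22% and 23% of all genes were. With MYC over shDHX15, 7 were higher and 7 lower (42.1% and 42.6% of all genes). Their median was -0.07, or 0.13 with total counts, against 0.006 and 0.20 for all genes. GPATCH4 itself held 4.9% in shDHX15+MYC, against 0.857% in shDHX15.

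**Figure D4:**
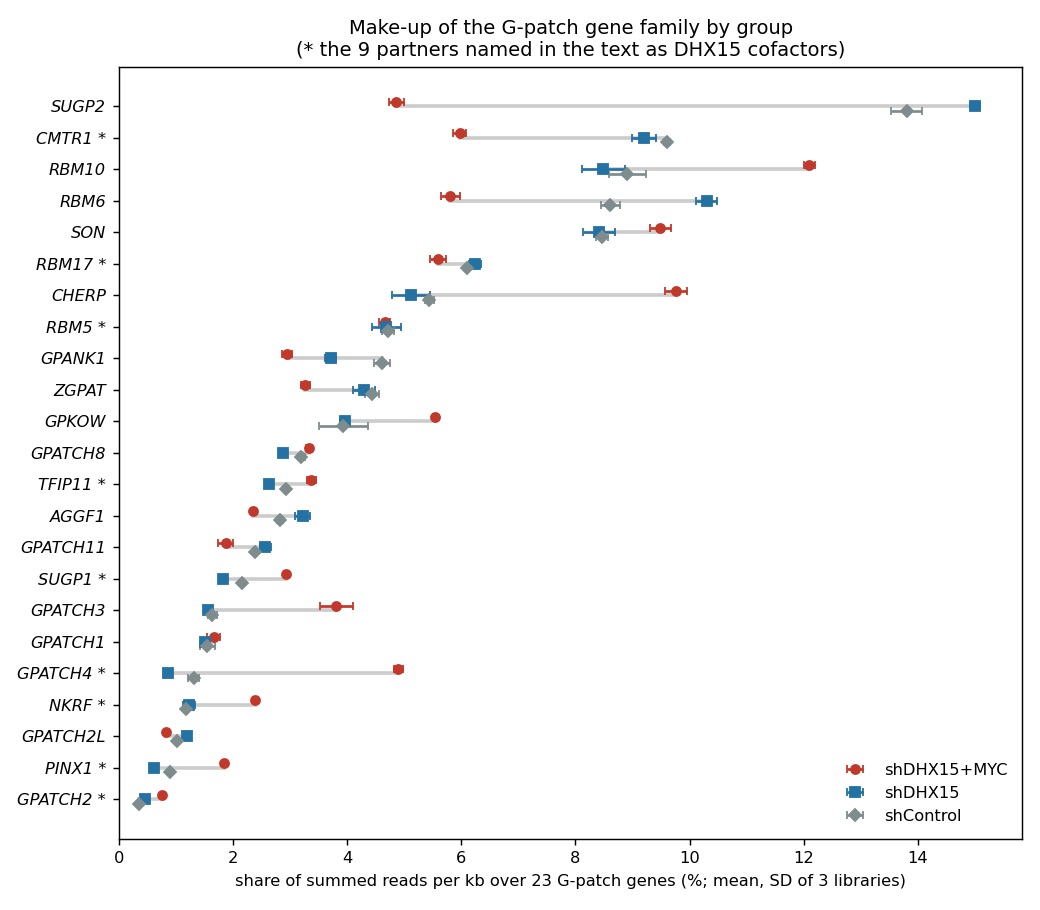
Share of each of 23 G-patch genes in their summed reads per kb of exon, in percent, as the mean and SD of 3 libraries in each group; asterisks mark the 9 partners. SUGP2, RBM6 and CMTR1 hold less in shDHX15+MYC than in the other groups, and GPATCH4, CHERP, RBM10 and GPATCH3 hold more.

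The machines that the partners serve were followed by lists. Under TMM their counts are to be read against 22% of all genes called higher and 23% lower in the knockdown. With MYC over shDHX15, 42.1% were called higher and 42.6% lower. Total counts moved this background: 7144 genes were called in the knockdown, 64.1% of them higher, with a median of 0.06 over all genes. With MYC over shDHX15, 13027 were called, 58.9% of them higher, with a median of 0.20. Pre-rRNA processing factors, 14 in all, had 2 called higher and 8 lower in the knockdown (median -0.16) and 12 higher and 2 lower with MYC over shDHX15 (median 0.70, against 0.006 for all genes). With total counts they had 3 higher and 6 lower in the knockdown (median -0.09) and again 12 and 2 with MYC (median 0.89). UTP14A, which activates the helicase DHX37, rose 3.63-fold with MYC (edgeR adjusted p = 8.9e-17) and RIOK1, a late 40S kinase, 3.74-fold. XRN2, the exonuclease that NKRF binds, went the other way, at 154.6 ± 0.682 CPM in shDHX15+MYC and 191.7 ± 4.41 CPM in shDHX15 (-0.31, adjusted p = 2.8e-08). NOB1, the nuclease that finishes 18S rRNA, fell in the knockdown (-0.32, adjusted p = 7.48e-06).

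Of 21 U2 snRNP and disassembly genes, 8 were called higher and 7 lower in shDHX15 over shControl, and 14 higher and 6 lower with MYC over shDHX15 (medians -0.006 and 0.24). With total counts these became 10 higher and 4 lower, and 17 higher and 4 lower (medians 0.06 and 0.44, against 0.06 and 0.20 for all genes). PAXBP1 and SF3B1 rose 1.44-fold and 1.23-fold in the knockdown, and the U2 subunits SF3A3 and SF3B5 fell 1.33-fold and 1.30-fold. With MYC, SF3B4 and SF3A1 rose 2.41-fold and 1.93-fold over shDHX15. U2AF1, among the 6 called lower, was listed at 3.61 ± 0.309 CPM in shDHX15+MYC, 83.2 ± 2.35 in shDHX15 and 92.8 ± 2.34 in shControl. Of its 100-base windows, 0.903 also occur in U2AF1L5, so its level is uncertain. The cause of its difference between groups was not tested. The 8 capping genes other than CMTR1 had 3 called higher and 4 lower with MYC over shDHX15 (median -0.22, but -0.02 with total counts). Among them PCIF1, another methyltransferase of the first nucleotide, fell 1.76-fold and the cap-binding NCBP1 rose 1.45-fold (edgeR adjusted p = 9.29e-13 and 1.5e-09). In the knockdown 4 were higher and 3 lower (median 0.09, or 4 and 2 with a median of 0.16 with total counts), CMTR2, which methylates the second nucleotide, rising 1.26-fold.

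Telomere and telomerase genes, the setting of PINX1, had 2 of 13 called higher and 4 lower in the knockdown (median -0.07, and 0.001 with total counts), and 5 higher and 7 lower with MYC over shDHX15 (median -0.18, and 0.02 with total counts). With total counts the calls were 4 higher and 3 lower in the knockdown and 6 and 6 with MYC. The RNP assembly factor NAF1 rose 2.26-fold with MYC, while TERT, the catalytic subunit, was at 0.716 ± 0.0804 CPM in shDHX15+MYC and 4.24 ± 0.428 CPM in shDHX15 (-2.56, edgeR adjusted p = 1.8e-10). Of 17 other helicases of the DEAH family, 5 were called higher and 5 lower in the knockdown (median 0.02) and 12 higher and 3 lower with MYC over shDHX15 (median 0.62). With total counts they had 7 higher and 4 lower (median 0.08), and 14 and 2 (median 0.82). DHX37 and DHX33, both active in ribosome assembly, fell 1.28-fold and 1.31-fold in the knockdown and rose 3.60-fold and 3.37-fold with MYC (edgeR adjusted p = 4.86e-16 and 4.14e-16). DHX15 rose 1.17-fold in that comparison.

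Genes whose course was most like that of DHX15 were looked for among 9651 genes averaging 3 or more in log2 CPM. Names of clones, dates, repeated symbols, antisense genes and LINC or LOC genes were left out, as were MT-, FAM, KIAA and orf names. Likeness was the root mean square difference of log2 CPM, centred on shControl, over the 9 libraries. The nearest 5 were RBM3, ATP6V0E1, LSM7, RASSF3 and RPL18, with differences of 0.0768, 0.0875, 0.0892, 0.104 and 0.104 and Pearson's r of 0.982, 0.979, 0.977, 0.973 and 0.991. RBM3, a cold-induced RNA-binding protein, was at 174.3 CPM in shDHX15+MYC, 157.9 in shDHX15 and 249 in shControl. The 9 libraries fall into 3 groups, so such an r mostly reflects the order of group means. No partner came near: CMTR1 was nearest at 0.443 and GPATCH4 farthest at 1.47. Of the 10328 genes at that level whatever their name, 67, DHX15 included, were called lower in the knockdown with a log2 fold change at or below that of DHX15.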

How the data were processed

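The authors deposited 1 table of unscaled whole-number counts, a row for each gene symbol and a column for each library. Per the labels' protocols, poly(A) libraries gave paired reads of 150 bp. Per the submitters' processing notes, the tools were FastQC 0.11.9, HISAT2 2.2.1, DESeq2 1.32.0 and the build hg38. How reads were counted, with which annotation and whether by strand, is not given in the sources used here. Columns named for a GFP hairpin were taken as shControl, and those named for a numbered hairpin, with or without MYC, as shDHX15+MYC and shDHX15, by name alone, with 0 columns left over (MYC was at 7098 CPM in shDHX15+MYC, 86.9 in shDHX15 and 109.3 in shControl). Genes were kept by filterByExpr (15309 of 17637), scaled by TMM and fitted with edgeR 4.0.16 in R 4.3.3 by quasi-likelihood over all 9 libraries, 1 mean per group. Tests were 2-sided with Benjamini-Hochberg adjustment over all 15309 genes, and the steps were tested on simulated data. DESeq2 1.42.0 was an alternative. Intervals are 95% intervals of the fit. The limit that a count of 0 allows is 0.0503 to 0.0712 CPM, for counting error only. Lengths and overlaps come from GENCODE v29 (GRCh38, the assembly of hg38), and shared sequence from 100-base windows taken every 50 bases. The labels do not say that replicates are separate cultures, so each p-value reflects the spread among libraries, which may be technical. Members and lists were chosen with earlier results of these data known. The text names all members, up to 2 genes per list and direction with the smallest adjusted p, any other G-patch gene, and the 5 genes nearest DHX15.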

Additional observations from a re-analysis of the deposited data

How the results depend on the processing

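Counts of members called were recomputed with DESeq2's size factors in edgeR, the DESeq2 test, no filter, the replicate block, only the 2 groups compared, total counts, and each library left out. The count called higher in shDHX15 over shControl, 2, was 4 with total counts and 1 to 2 with a library left out (1 without replicate 1, 2 or 3 of shControl or replicate 2 of shDHX15). The count called lower in shDHX15+MYC over shDHX15, 2, was 1 with total counts. The other counts of members stayed within 1.5 times. Libraries of the same number did not deviate together (r -0.0239 to 0.0412). With 3 libraries per group this cannot settle whether the numbers mark a shared culture or run. The replicate block gave the same 2 higher and 4 lower, 7 and 2, and 7 and 2. It gave 6748 genes called over the table in the knockdown in place of 6886. The values that changed sign were CMTR1 in the knockdown (-0.001 without replicate 1 or 2 of shDHX15 and up to 0.014 with another library left out, but 0.07 with total counts), RBM5 with MYC over shDHX15 (-0.009 without replicate 3 of shDHX15 and up to 0.044 with another library left out, but 0.22 with total counts, where it was called) and RBM17 with MYC, which over shDHX15 was 0.066 with total counts and over shControl was 0.006 with DESeq2's size factors, 0.005 in DESeq2 and 0.23 with total counts. The cause was not tested. RBM5 over shControl was not called without the filter (0.06, adjusted p = 0.123). Total counts raised the share of calls that were higher over the table to 64.1% in the knockdown, in place of 48.8%. They raised it to 58.9% in shDHX15+MYC over shDHX15 and to 62.4% over shControl, in place of 49.7% in each. Levels per length all moved with the longest transcript.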
